A study of Brassica carinata x Brassica rapa with 9 samples.

Results

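NOP10 (Bra036475, A-genome) and NFD1 (BniB000251, B-genome) were the 2 genes described, out of 100804 genes in the FPKM table of a synthetic Brassica allohexaploid. They were taken by identifier, and each is the only copy of its Arabidopsis ortholog that the study names. RNA-Seq was made from young leaves (Leaf), from ovules between meiosis and the mature embryo sac (Ovule) and from anthers between meiosis and mature pollen (Anther), with 3 libraries for each tissue and 9 in all. All 9 libraries share the genotype AABBCC, from a cross of B. carinata (B- and C-genomes) with B. rapa (A-genome), and Leaf served as the vegetative control. The sample labels call B. carinata the male parent, whereas the methods of the study call it the maternal one. The study describes the 3 libraries of a tissue as biological replicates. The plants are not stated to be separate for each library, so the p-values below measure the spread between these libraries.

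NOP10 is a small protein of the H/ACA ribonucleoprotein particles, which use guide RNAs in the nucleolus to convert chosen uridines of ribosomal RNA to pseudouridine. NFD1 encodes the mitochondrial ribosomal protein L21 in Arabidopsis, a part of the large subunit of the ribosome that translates the genes of mitochondrial DNA. In Arabidopsis, both genes are known for the female gametophyte, the embryo sac that grows by nuclear divisions from the functional megaspore. Loss of NOP10 there disturbs the nuclear divisions and the fusion of the polar nuclei, and loss of NFD1 disturbs nuclear fusion (karyogamy). Neither gene acts in the embryo sac alone, since ribosomes are needed in every tissue. An ovule holds far more cells of the surrounding sporophyte than of the embryo sac, and in such bulk samples a different share of a cell type and a different amount of RNA per cell cannot be told apart.

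The deposited values are FPKM, that is, reads on a gene divided by the length of the gene and by the total reads of the library. They proved to be whole reads times a step, so that the reads behind each value could be read back, and the reads on genes numbered between 8675687 and 10154191 per Leaf library. An Ovule library held 15113765 to 15516175 such reads and an Anther library 15079547 to 15531656. The study reports that a smaller share of reads mapped to the genomes in Leaf than in Ovule and Anther. Every comparison with Leaf carries this difference, whose part in the values was not tested. The coding lengths that fit these steps were 195 bases for NOP10 and 549 bases for NFD1, against a median of 1014 bases. NOP10 is thus among the shortest genes of the table, with only 1.14% of genes shorter. A single read was worth 0.330 to 0.591 FPKM for NOP10 and 0.117 to 0.210 FPKM for NFD1. The 51 genes of tapetum and pollen wall that the study picked from these libraries reached a sum of 8574 to 15718 FPKM per Anther library, of 40.8 to 145 per Ovule library and of 25.4 to 27.8 per Leaf library, and 37 of the 51 had no read in Leaf. This list was chosen on the same libraries and is no independent check of the tissues. No defining markers of ovule or leaf were used here.

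NOP10 was highest in Ovule, lower in Anther and lowest in Leaf. In Ovule it stood at 40.9 FPKM in replicate 1, 32.2 in replicate 2 and 26.4 in replicate 3. In Anther it stood at 13.5 FPKM in replicate 1, 7.47 in replicate 2 and 7.91 in replicate 3. In Leaf it stood at 4.54, 4.73 and 2.67 FPKM in replicates 1, 2 and 3. No library of a tissue reached the range of another tissue, and the smallest gap was between Leaf replicate 2 and Anther replicate 2. The mean was 33.2 ± 7.30 FPKM for Ovule, 9.61 ± 3.34 for Anther and 3.98 ± 1.13 for Leaf (SD, n = 3).

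NFD1 was likewise highest in Ovule, but its levels in Anther and Leaf ran into each other. In Ovule it stood at 8.91 FPKM in replicate 1, 10.9 in replicate 2 and 13.8 in replicate 3. In Anther it stood at 3.70, 4.46 and 2.93 FPKM, and in Leaf at 2.33, 3.57 and 2.47 FPKM, in replicates 1, 2 and 3. Leaf replicate 2 was above Anther replicate 3, so the order of these neighbours does not stand out from the spread of single libraries, whereas each Ovule library was above all others. The mean was 11.2 ± 2.49 FPKM for Ovule, 3.70 ± 0.767 for Anther and 2.79 ± 0.677 for Leaf (SD, n = 3).

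**Figure D1:**
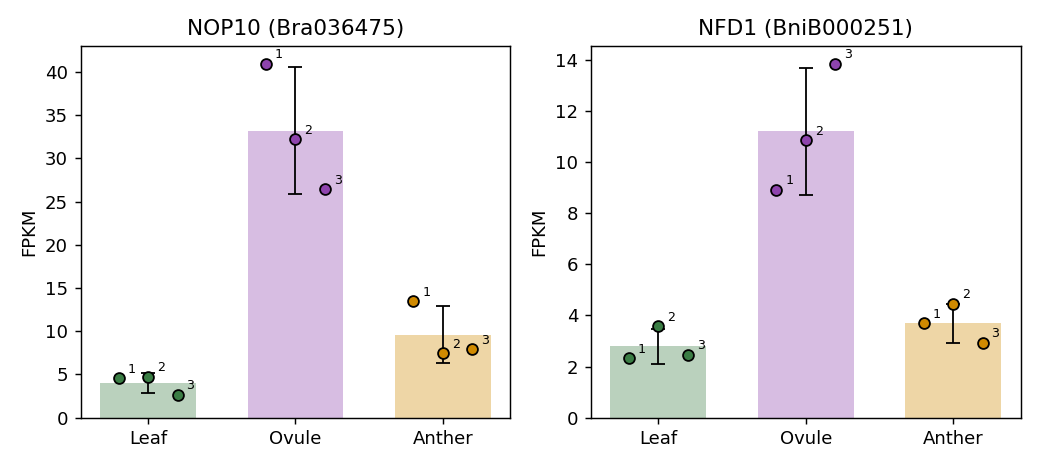
FPKM of NOP10 (left) and NFD1 (right) in the Leaf, Ovule and Anther libraries, with a point for each library (replicate number beside it), bars for the mean and error bars for the SD of 3 libraries. NOP10 spans 26.4 to 40.9 FPKM in Ovule against 2.67 to 4.73 in Leaf, and NFD1 spans 8.91 to 13.8 in Ovule against 2.33 to 3.57 in Leaf.

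Among all genes with FPKM above 0 in a tissue, NOP10 moved from the middle to the upper end. Its mean was above that of 58.9% of such genes in Leaf, 76.0% in Anther and 92.9% in Ovule. NFD1 was close to the median gene in Leaf and Anther, above 50.9% and 54.7% of genes, and above 76.6% in Ovule. Of the sum of the 3 tissue means, Ovule held 71.0% for NOP10 and 63.3% for NFD1, against a median of 36.1% over the 75038 genes tested, those that reached 0.5 FPKM in 3 or more libraries. Of these genes, 3368 had a larger Ovule share than NOP10 and 5575 a larger one than NFD1. Anther held nearly the same share of both genes, 20.5% for NOP10 and 20.9% for NFD1, whereas the share of Leaf was 8.51% for NOP10 and 15.8% for NFD1.

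The number of reads limited how well each level was known, and it was lowest for NOP10 in Leaf. NOP10 had 9, 8 and 5 reads in Leaf replicates 1, 2 and 3. It had 124, 97 and 78 reads in the Ovule libraries and 40, 22 and 24 in the Anther libraries, in the same order. Pooled over a tissue, the 22 Leaf reads of NOP10 gave 3.97 FPKM with an exact Poisson 95% interval of 2.49 to 6.01, whereas the 299 Ovule reads gave 33.3 FPKM with an interval of 29.6 to 37.3. The 86 Anther reads gave 9.61 FPKM with an interval of 7.68 to 11.9, which lies apart from both. These intervals cover counting error only.

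NFD1, although at a lower FPKM, is longer, and it had a like number of reads in Ovule and more in Leaf. The Leaf replicates 1, 2 and 3 had 13, 17 and 13 reads. In the same order, the Ovule replicates had 76, 92 and 115 reads and the Anther replicates had 31, 37 and 25. Pooled, the 43 Leaf reads gave 2.75 FPKM with an exact Poisson 95% interval of 1.99 to 3.71. The 93 Anther reads gave 3.69 FPKM with an interval of 2.98 to 4.52, which overlaps that of Leaf, and the 283 Ovule reads gave 11.2 FPKM with an interval of 9.92 to 12.6.

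**Figure D2:**
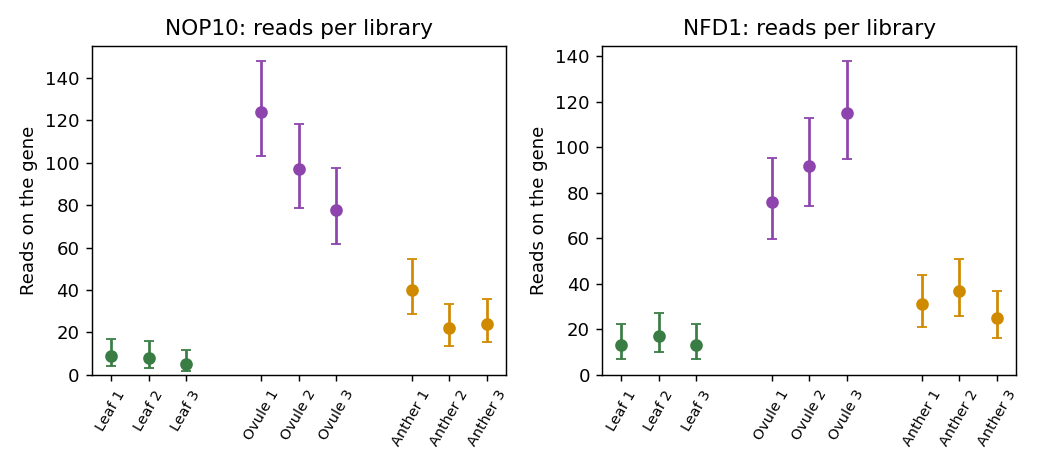
Reads on NOP10 (left) and NFD1 (right) in each library, with exact Poisson 95% intervals as error bars. NOP10 had 5 to 9 reads in Leaf and 78 to 124 in Ovule, and NFD1 had 13 to 17 in Leaf and 76 to 115 in Ovule, with the libraries of highest NOP10 and of highest NFD1 at opposite ends in Ovule.

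Within Ovule the members varied more than the counting of reads gives, and in opposite directions. The SD of NOP10 between Ovule libraries was 7.30 FPKM where counting alone gives 3.33, and that of NFD1 was 2.49 where counting gives 1.15. Replicate 1, the Ovule library with the most NOP10, had the least NFD1, and replicate 3 the reverse. In Leaf the SD was 1.13 FPKM for NOP10 and 0.677 for NFD1, below the 1.47 and 0.728 that counting gives. In Anther it was 3.34 FPKM for NOP10, above the 1.79 from counting, and 0.767 for NFD1, near the 0.663 from counting. The spread of the members in Ovule was not unusual for their depth: the chi-square of 3 libraries was higher than in 75.8% of 7022 genes of like depth for NOP10 and in 75.3% of 7003 for NFD1. The summed level of the 51 anther genes was 40.8, 67.0 and 145 FPKM in Ovule replicates 1, 2 and 3, highest where NFD1 was highest and NOP10 lowest, and its part in these values was not tested.

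The study took both genes from those that were higher in Ovule than in Leaf and Anther in these same libraries, so the changes toward Ovule are a description and not independent evidence. Mean NOP10 was 8.34 times as high in Ovule as in Leaf and 3.45 times as high as in Anther. On log2(FPKM + 0.1), the scale of the fit by limma over all tissues, NOP10 differed by 3.05 between Ovule and Leaf and by 1.81 between Ovule and Anther (standard error 0.29 for each). Mean NFD1 was 4.02 times as high in Ovule as in Leaf and 3.03 times as high as in Anther, with log2 differences of 1.97 and 1.57 (standard error 0.24 for each). The changes from Leaf depended on scaling: after median-of-ratios rescaling Ovule over Leaf was 2.40 for NOP10 and 1.33 for NFD1, and with limma voom on the recovered reads it was 2.34 and 1.32. The lowest Ovule library was 5.60 times the highest Leaf library for NOP10 and 2.50 times for NFD1.

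Genes were called where the fold change was 2 or more and p, adjusted by Benjamini-Hochberg over all genes tested, did not exceed 0.05. By this rule both members were higher in Ovule than in Leaf, as were 36.8% of the 75038 genes tested, and higher in Ovule than in Anther, as were 14.3%. Both were called higher in Ovule than in each of the other tissues, as were 9.04% of genes. Ovule libraries that were all above Leaf, as for both members, were found for 53.3% of genes, and Ovule libraries all above Anther for 32.1%. The median gene itself lay 0.66 higher in Ovule than in Leaf on the log2 scale and 0.11 higher in Ovule than in Anther. Relative to that median, NOP10 was 2.38 and NFD1 1.31 higher in Ovule than in Leaf, and NOP10 was 1.69 and NFD1 1.46 higher in Ovule than in Anther. The log2 difference was larger than that of NOP10 in 6262 genes for Ovule over Leaf and in 4809 genes for Ovule over Anther. For NFD1 these numbers were 12852 and 6176.

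Anther against Leaf was not itself used to choose the genes and was therefore tested, with a call for NOP10 and none for NFD1. The choice did use the same Leaf and Anther libraries, each against Ovule, so the test is not wholly free of it. The call for one and not the other does not show that they differ, and their ratio is given further on. NOP10 was higher in Anther than in Leaf, by 1.24 on the log2 scale (standard error 0.29, adjusted p = 0.0032 from limma), and each Anther library was above each Leaf library. Such a call toward Anther was made for 38.4% of the genes tested, and 52.7% had Anther libraries that were all above Leaf, so such a change was common in this comparison. NFD1 differed by 0.40 between Anther and Leaf (standard error 0.24, 95% interval -0.14 to 0.94, adjusted p = 0.16 from limma), which is within the spread of libraries and leaves room for a change of either sign. The median of all genes was 0.66 higher in Anther than in Leaf, so NOP10 lay 0.58 above the median gene and NFD1 0.26 below it (difference -0.26).

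Of all genes tested, 28784 were called higher and 12670 lower in Anther than in Leaf, against 20200 and 16974 after the libraries were scaled to each other by median-of-ratios factors. For Ovule against Leaf the numbers were 27612 and 11071, against 15757 and 16125. In both comparisons the study's own counts lay nearer to the rescaled numbers. They came from DESeq2 on read counts, at the same limits of fold change and adjusted p. The call for NOP10 in Anther over Leaf depended on scaling and on single libraries. After this rescaling its log2 difference was 0.74 (adjusted p = 0.044 from limma), under the 2-fold limit. With limma voom on the recovered reads it was 0.68 (adjusted p = 0.23). It was 0.98 without Leaf replicate 3, the lowest Leaf library (adjusted p = 0.012 from limma), and 0.98 without Anther replicate 1, the highest Anther library (adjusted p = 0.010 from limma), again just under the limit. Under the same rescaling the sign for NFD1 turned, to -0.10 (adjusted p = 0.74 from limma).

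A ratio of both genes within a library does not depend on scaling between libraries, and it asks whether one changed more than the other. NOP10 exceeded NFD1 in FPKM in every library, that is, after division by coding lengths of 195 and 549 bases. In reads, NOP10 was below NFD1 in all Leaf libraries, in Ovule replicate 3 and in Anther replicates 2 and 3. It was above NFD1 in reads in the other libraries. Leaf replicate 3 had only 5 reads of NOP10 (exact Poisson 95% interval 1.62 to 11.7), so counting error alone leaves room for a higher NFD1 there. The FPKM of NOP10 was 1.95, 1.32 and 1.08 times that of NFD1 in Leaf replicates 1, 2 and 3. The ratio was 4.59, 2.97 and 1.91 in the Ovule libraries and 3.63, 1.67 and 2.70 in the Anther libraries, in the same order. Ovule replicate 3 and Anther replicate 2 were below Leaf replicate 1, so each reproductive tissue overlapped with Leaf. The mean log2 ratio was 0.48 ± 0.42 for Leaf, 1.56 ± 0.63 for Ovule and 1.32 ± 0.56 for Anther (SD, n = 3).

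The exact permutation test of 3 against 3 libraries cannot give a p below 0.1, so it could not pass 0.05 in any of the 3 pairs of tissues, and the differences are given by their size and error. Ovule exceeded Leaf by 1.08 on the log2 scale (standard error 0.44) and Anther exceeded Leaf by 0.84 (standard error 0.40), each with p = 0.2 by exact permutation (two-sided) and an adjusted p of 0.3 over the 3 pairs. Ovule and Anther differed by 0.24 (standard error 0.48, exact permutation p = 0.7), and the sign turned to -0.08 without Ovule replicate 1 and to -0.06 without Anther replicate 2. Whether NOP10 changed more than NFD1 is not settled by these p-values.

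**Figure D3:**
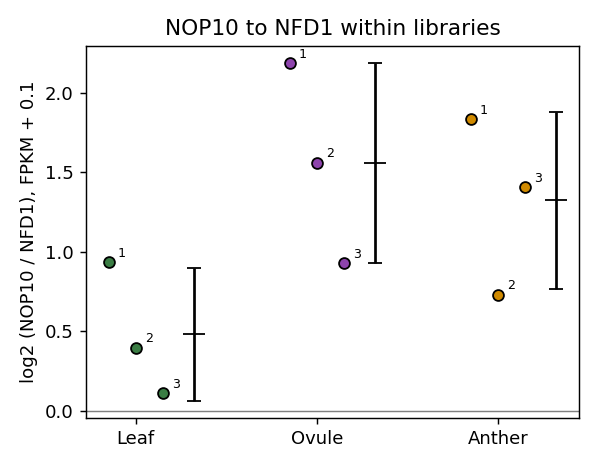
log2 ratio of NOP10 to NFD1 within each library, computed on FPKM + 0.1, with replicate numbers beside the points and the mean ± SD of 3 libraries at the right of each tissue. All 9 points are above 0, and the lowest Ovule library at 0.928 and the lowest Anther library at 0.731 fall under the highest Leaf library at 0.934.

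The study lists NOP10 and NFD1 among 23 genes of female gamete development, and the other 21 of them were followed in the same fit. They were chosen on these libraries in the same way, so their direction toward Ovule is fixed by that choice. The choice used the Leaf and Anther libraries too, so Anther against Leaf is not wholly free of it. In Anther against Leaf, 16 of the 21 were called higher in Anther and 0 lower, beside 38.4% of all genes tested called higher, and their median log2 difference was 2.14, beside 0.66 over all genes. After median-of-ratios rescaling 12 were called higher and 0 lower, beside 26.9% of all genes called higher. NOP10 went with the called genes and NFD1 with the others on the deposited values, whereas after rescaling neither of them was called. All 6 genes of nuclear positioning were among the 16, with differences of 2.14 to 3.66. They are the gamma-tubulin gene TUBG1 (Bra007622), at 7.29 ± 0.616 FPKM in Anther and 1.63 ± 0.569 in Leaf (SD, n = 3), and the 5 copies of NACK1, a kinesin of cell plate formation. The NACK1 copies had only 6 to 19 reads each over the Leaf libraries, at means of 0.0737 to 0.231 FPKM. These means are near the 0.1 added, so the size of their differences depends on the amount added. Of 13 genes of mitotic progression beside NOP10, 9 were called higher. The 4 that were not called included both copies of APC1, a subunit of the anaphase-promoting complex, at differences of 0.70 (Bra028755) and 0.39 (BniB038334). Of both copies of AMP1, which acts in synergid cell fate in Arabidopsis, Bra014794 was called higher at 2.21 and BniB007415 was not at 0.51.

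Among these genes NOP10 ranked first by level, and NFD1 ranked near the end by its difference from Leaf. NOP10 had the highest mean FPKM of the 23 in each of the 3 tissues. In Ovule the next list gene had a mean of 28.4 FPKM, within 1 SD of NOP10, and BniB007136, a copy of the Ran GTPase activator RanGAP1, stood at 21.1 FPKM. NFD1 was the third most abundant of the 23 in Leaf and the ninth in Ovule. By the size of the difference NFD1 was at rank 21 of 23 in Ovule over Leaf and at rank 22 in Anther over Leaf, whereas it was at rank 12 in Ovule over Anther. NOP10 was at rank 14 in both comparisons with Leaf and at rank 5 in Ovule over Anther. Both comparisons with Leaf use the same 3 Leaf libraries.

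**Figure D4:**
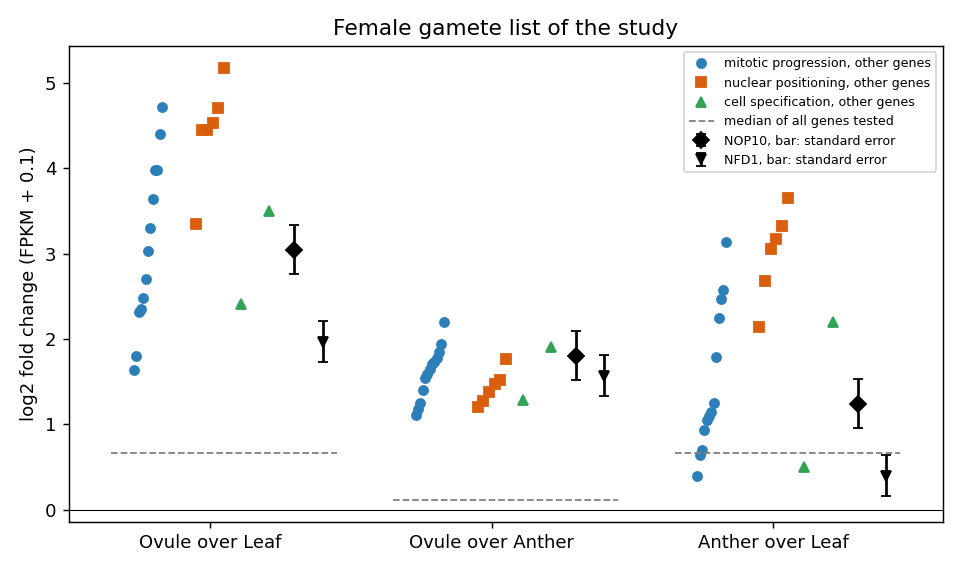
log2 fold change on FPKM + 0.1 for the 23 female gamete genes of the study in 3 comparisons, with other genes as coloured points by group, NOP10 and NFD1 as black symbols with standard errors, and the median of all genes tested as a dashed line. In Anther over Leaf, NOP10 at 1.24 lies above the median gene at 0.66 and NFD1 at 0.40 lies below it.

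Over the 9 libraries the pattern of NOP10 and NFD1 was alike but shared with many genes. Pearson's r between them on log2(FPKM + 0.1) was 0.89, given as a description over 9 libraries of 3 tissues, which share depth within a tissue. The study chose both genes for being higher in Ovule in these libraries, so a high r comes largely with that choice. Within Ovule the order of the replicates was opposite for the members. Of the 75037 genes compared, 7235 were closer to NOP10 than NFD1 was, and 4188 were closer to NFD1 than NOP10 was. An r of at least 0.95 was found with NOP10 for 1509 genes and with NFD1 for 639 genes.

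The genes most like NOP10 were Bra023088 (r = 0.995) and BniB010444 (r = 0.994). In Ovule BniB010444 stood at 12.4 ± 1.81 FPKM, against 2.27 ± 0.596 in Anther and 0.808 ± 0.271 in Leaf (SD, n = 3). Bra023088 was more abundant but varied less between tissues, at 54.8 ± 4.30, 37.7 ± 3.16 and 28.0 ± 1.77 FPKM. In both, Ovule replicate 1 was the highest Ovule library and Anther replicate 1 the highest Anther library, as for NOP10. The genes most like NFD1 were Bra034591 (r = 0.992) and Bol041241 (r = 0.991). In Ovule Bol041241 stood at 26.8 ± 2.92 FPKM, against 12.8 ± 2.68 in Anther and 10.3 ± 1.03 in Leaf, and Bra034591 at 37.1 ± 2.43, 21.4 ± 2.25 and 18.8 ± 1.66 FPKM. In these, Ovule replicate 3 and Anther replicate 2 were the highest of their tissues, as for NFD1. All 4 genes were picked by r over these same libraries, so a shared order of replicates comes with that choice. The files give no names for these 4 genes.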

How the data were processed

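RNA-Seq was made from Leaf, Ovule and Anther, with 3 libraries each, grouped by sample title. The authors used HISAT2 2.1.0 for alignment to the B. rapa, B. nigra and B. oleracea genomes and HTSeq 0.6.0 for counting, and deposited FPKM. The labels also name StringTie 1.3.2. Reads that fit copies on several subgenomes may be dropped or given to a single copy, so values of single copies are uncertain. Gene names are those of the study, and no genome or annotation was used here.

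Reads were recovered from the FPKM steps, within 0.01 read for 99.99% of genes. Totals behind FPKM exceeded the reads in the table by a little, as 99.8% to 99.9% of each total was in the table. Tissues were compared on log2(FPKM + 0.1) with limma 3.58.1 (R 4.3.3), fitting 9 libraries together with an eBayes trend, over the 75038 genes that reached 0.5 FPKM in 3 or more libraries. Ratios were compared by exact permutation. The recovery of reads and the limma fit, not the permutation, were tested on simulated data. Genes of like depth are those with mean reads within a factor of 1.2. Python 3.11.15 was used with scipy 1.17.1, numpy 2.4.6, matplotlib 3.10.9 and pandas 2.3.3 for all else.

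The members, lists and tests were chosen with earlier results of these data known. Genes were named if they were members, belonged to the female list of the study, or were among the 2 with the highest Pearson r to a member. A planned list of H/ACA and mitochondrial ribosome genes was not run because no annotation paired names with identifiers.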

Additional observations from a re-analysis of the deposited data

How the results depend on the processing

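Tried instead were a pseudocount of 1 or of 0.01, the fit without a filter or with one of 1 FPKM, median-of-ratios rescaling, only the 2 tissues compared, a replicate block, vooma weights, voom on recovered reads, each library left out and, chosen after seeing the data, the Leaf libraries counted as 1 sample, where the lone sample is assumed to vary like the other tissues. Under all 19, both members stayed called higher in Ovule than in Leaf and Anther. The study chose both genes for this direction in these libraries, so these calls are a description and not independent evidence. Of the 75038 genes tested, 27612 were called higher in Ovule than in Leaf in the main fit, 15757 after rescaling and 14109 with voom. For Ovule over Anther these numbers were 10742, 8731 and 9245. In both comparisons a changed filter, vooma weights, the replicate block, only the 2 tissues, or leaving out a third-tissue library left the difference unchanged. Ovule over Leaf was 2.40 for NOP10 and 1.33 for NFD1 after rescaling, and 2.34 and 1.32 with voom. Rescaling brought the median of all genes from 0.66 to 0.18 in Anther over Leaf, to 0.08 in Ovule over Leaf, and from 0.11 to -0.02 in Ovule over Anther. In Anther over Leaf, NOP10 was called in 15 of 19 alternatives (adjusted p 0.00068 to 0.23 from limma), at 0.74 after rescaling and 0.68 with voom, and at 0.98 to 1.40 with single libraries left out. NFD1 was called in 0 of 19 (adjusted p 0.062 to 0.81 from limma), at -0.10 after rescaling and -0.11 with voom. The cause was not tested. A changed filter, vooma weights, the replicate block, only the 2 tissues, or an Ovule library left out kept the Anther over Leaf difference itself unchanged. These alternatives could not bring NOP10 under the 2-fold limit. The ratio for Ovule against Anther ranged from -0.078 to 0.55 with single libraries left out, at -0.078 without Ovule replicate 1 and -0.060 without Anther replicate 2.

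Replicate numbers are shared between tissues, and deviations of same-numbered libraries correlated by -0.09 to 0.16. Low correlations cannot exclude that the numbers pair the samples, and neither the labels nor the study state it. With the replicate block the log2 difference of NOP10 in Anther over Leaf was again 1.24 (adjusted p = 0.00068 from limma), and the ratio differed by 1.08 between Ovule and Leaf (exact sign-flip p = 0.25, the smallest possible). The block changed no call of either member. The 5 to 9 reads of NOP10 in each Leaf library limit how well its Leaf level is known.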
